A study of Mus musculus with 9 samples.

Results

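Lung RNA of mice given bleomycin followed by an inhaled Cas9 particle was compared here with lung RNA of mice given saline. The comparison used 6 of the 9 libraries of the series, chosen by their labels, 3 named LNP and 3 named control. All 9 came from whole lung of C57BL/6 mice with genotype WT, taken at day 21, and poly(A) RNA was sequenced. Control mice received saline and no bleomycin. The LNP group received bleomycin, an agent that breaks DNA and is used to provoke lung fibrosis, and then particles labelled mCas9/gSting@DOPS LNPs. A lipid nanoparticle carries nucleic acid into cells, and Cas9 is a nuclease that a guide RNA directs to its DNA target. The title of the series describes the medicine as one that targets macrophages and acts on the STING pathway. The 3 libraries of the remaining group, with bleomycin and no particles, are set beside the others where a value bears on the comparison. The sources used here give no doses, guide sequence or days of treatment.

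The groups differ by both bleomycin and the particles, so in a difference between them these cannot be told apart. No particle without guide was analysed here. The labels do not say that the 3 libraries of a group came from separate animals. A p-value then covers only the spread over these libraries, which may be technical. In RNA of a whole organ, fewer cells of a type and less RNA per cell cannot be told apart.

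Bleomycin injures the alveolar epithelium, and the repair that follows recruits monocyte-derived macrophages and activates fibroblasts, which lay down collagen. STING is an adaptor at the endoplasmic reticulum that is switched on by cyclic GMP-AMP, the product of the DNA sensor cGAS. It recruits the kinase TBK1, which activates the transcription factor IRF3 and with it type I interferon and the genes that interferon induces. In the lung, macrophages are among the cells in which this pathway is active.

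Total gene counts of the 6 libraries ranged from 56047830 to 69404903, and 20794 genes were tested. Levels are CPM, the counts of a gene scaled to a common library size, errors after ± are SE of log2 fold changes, and a gene is called higher or lower at an adjusted p under 0.05. Lung markers were present in every library: Sftpc, the surfactant protein of alveolar type 2 cells, was at 15370, 20490 and 14720 CPM in control and 13420, 10480 and 3760 in LNP libraries, and Ager, a type 1 cell marker, at 2567, 3373 and 2292 CPM in control and 3221, 3254 and 2245 in LNP libraries. LNP replicate 3 stood apart. The summed level of 15 skeletal muscle genes was 50.7, 70.1 and 51.6 CPM in control libraries, 29.9 and 34.2 CPM in LNP replicates 1 and 2, and 10320 CPM in LNP replicate 3. The sum of 14 genes of stratified squamous epithelium was 43.3 to 48.7 CPM in control, 65.7 and 38.8 CPM in LNP replicates 1 and 2, and 2302 CPM in replicate 3. In that library 123 genes were at least 2 log2 units higher than in any other of the 9, against 1 gene in LNP replicate 1 and 0 in replicate 2. Counts of genes called against control are therefore given with and without it, and counts against bleomycin with all libraries only. The part these transcripts play in any other difference was not tested.

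Between LNP and control lung 1030 genes were higher (4.95% of those tested) and 641 were lower (3.08%). Without LNP replicate 3, 1369 of 21373 genes were higher (6.41%) and 963 lower (4.51%). Of the 1671 genes called with all libraries, 1490 were called in the same direction without replicate 3 and 0 in the opposite one. The 3 LNP libraries all lay above the 3 control libraries for 2840 genes (13.7%) and all below for 3157 (15.2%). The median log2 fold change over all tested genes was -0.0028. Against the bleomycin libraries, LNP lung had 891 genes higher (4.28%) and 389 lower (1.87%). That contrast uses the same LNP libraries, so the sets of calls are not independent.

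**Figure D1:**
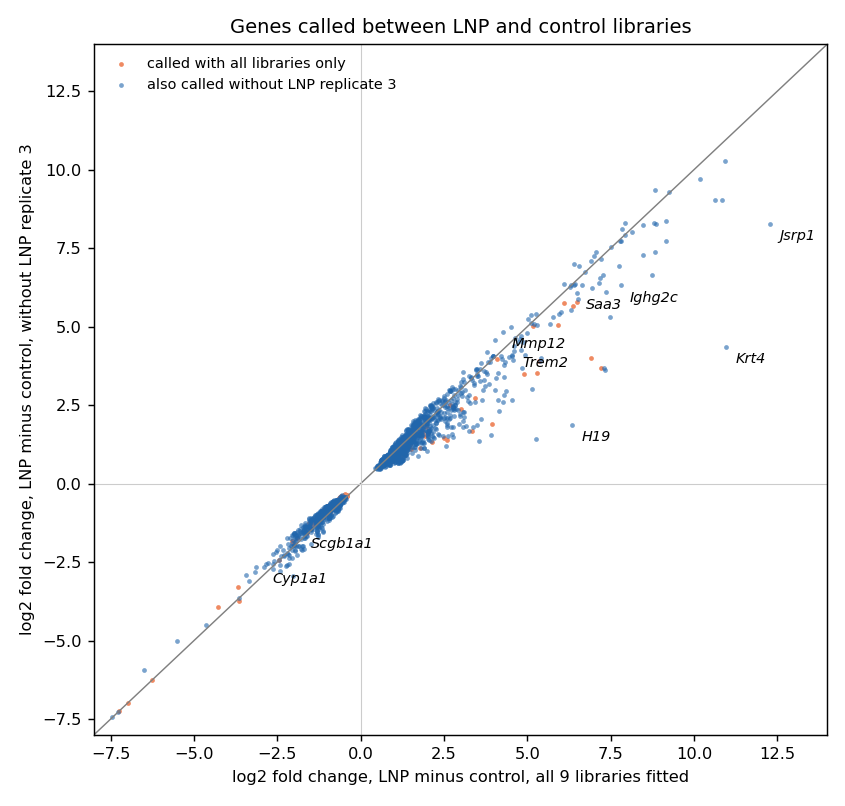
Each point is 1 gene called between LNP and control libraries, with the log2 fold change from all 9 libraries on the horizontal axis and from 8 libraries, without LNP replicate 3, on the vertical axis, and the line marks equal values. Most points lie along the line, and genes such as Krt4 and H19 lie far below it.

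Sting1 (ENSMUSG00000024349), the target named in the particle's label, was higher in LNP than in control lung. It was at 18.4, 23.9 and 20.9 CPM in control and 51.8, 62 and 44.2 in LNP libraries, so the groups did not overlap and the highest LNP level was that of replicate 2. The rise passed the test (log2 fold change 1.32 ± 0.18, adjusted p = 0.00293), and without replicate 3 it was 1.47, adjusted p = 0.000697. It passed without each of the 9 libraries in turn. An exact two-sided permutation test over the 6 libraries gave p = 0.1, the smallest that 3 against 3 allow. The bleomycin libraries were at 53.8, 41.5 and 40.5 CPM, and the difference of LNP from them did not pass the test (log2 difference 0.22, adjusted p = 0.477). Levels of RNA in whole lung do not measure editing of the gene, and the share of edited cells was not analysed here.

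Of 17 tested genes of the STING pathway, 6 rose and 0 fell, where 4.95% and 3.08% of all tested genes did, and the median log2 fold change was 0.68. Without LNP replicate 3, when 6.41% and 4.51% of all genes were called, the count was 7 higher and 0 lower. The sensor Cgas did not pass, at 2.01, 1.39 and 2.25 CPM in control and 3.29, 3.52 and 2.42 in LNP libraries (log2 fold change 0.71 ± 0.33, adjusted p = 0.226). The kinase Tbk1 (log2 fold change -0.04) and the factor Irf3 (-0.29) did not pass either. The members that rose were Sting1, the interferon regulatory factor Irf7, the DNA-binding proteins Ifi204 and Zbp1, the phosphodiesterase Enpp1, which breaks down cyclic GMP-AMP outside the cell, and the regulator Nlrc3. Irf7, which amplifies type I interferon, was at 22.2, 24 and 25.3 CPM in control and 74, 67 and 147 in LNP libraries (log2 fold change 2.01 ± 0.27, adjusted p = 0.00288). All 3 LNP libraries lay above all controls, replicate 3 most. Ifi204 was at 5.84, 2.06 and 4.13 CPM in control and 10.7, 15.1 and 23.8 in LNP libraries (log2 fold change 2.04 ± 0.38, adjusted p = 0.0115). Zbp1, a sensor of Z-form nucleic acid, was at 6.15, 6.57 and 8.56 CPM in control and 24.9, 20.7 and 12 in LNP libraries (log2 fold change 1.44 ± 0.28, adjusted p = 0.0144), with the lowest LNP level in replicate 3. Among Sting1, Irf7, Ifi204 and Zbp1, leaving out 1 library ended the call for Ifi204 without control replicate 3 (adjusted p = 0.0538). For Zbp1 it was lost without control replicate 1 (adjusted p = 0.073), or control replicate 2 (adjusted p = 0.0502). Enpp1 and Nlrc3 were not examined in this way.

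Some interferon-stimulated genes rose with all libraries, and more without LNP replicate 3. Of 31 tested, 11 were higher and 0 lower with all libraries, and 19 higher and 0 lower without LNP replicate 3, when the median log2 fold change moved from 0.55 to 0.78. Among all tested genes 4.95% were higher with all libraries and 6.41% without replicate 3. Oas3, which makes the 2-5A that activates RNase L, was at 2.56, 2.66 and 3.33 CPM in control and 14.7, 12.8 and 15.1 in LNP libraries (log2 fold change 2.31 ± 0.17, adjusted p = 0.000203). Cxcl10, a chemokine for T cells, was at 0.979, 1.77 and 1.86 CPM in control and 13, 12.7 and 11 in LNP libraries (log2 fold change 2.99 ± 0.31, adjusted p = 0.00103). In both, the 3 LNP libraries lay close together and well above the controls. Ifit3, a protein of the antiviral IFIT complex, was at 63.3, 47 and 58.5 CPM in control and 119.5, 103 and 107 in LNP libraries (log2 fold change 0.97 ± 0.14, adjusted p = 0.00357), and the 2-5A synthetase-like Oasl1 at 2.9, 4.12 and 3.8 CPM in control and 9.65, 9.31 and 11.1 in LNP libraries (log2 fold change 1.47 ± 0.21, adjusted p = 0.0037). Isg15, a ubiquitin-like modifier, was at 9.54, 9.72 and 9.46 CPM in control and 37.8, 30.6 and 17 in LNP libraries, all LNP libraries above control but replicate 3 less so. The other genes called higher were Mx1, Oas1a, Cxcl9, Rsad2, Ifit1 and Oas2. Over the 31 genes the mean distance from control on the log2 scale was 0.99, 0.86 and 0.45 in LNP replicates 1, 2 and 3. In bleomycin libraries Oas3 was at 13.5, 12.6 and 12.3 CPM and Cxcl10 at 10.9, 9 and 5.92. For Oas3, Cxcl10, Ifit3 and Oasl1 the difference of LNP from bleomycin did not pass (adjusted p = 0.623, 0.304, 0.712 and 0.197). Of the 31 genes 6 were higher in LNP than in bleomycin libraries and 0 lower. Over all genes these shares were 4.28% and 1.87%.

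Interferon acts on many of these genes through the interferon-stimulated response element, a promoter motif with paired GAAA cores. The sequences shown are parts of promoters of genes that rose, to show what the core looks like there. The letters GAAANNGAAA were searched on both strands, overlapping matches included, in RefSeq windows of 300 bases from 250 before to 50 after each gene start (GRCm38.p6). Of all 32851 windows, 3.44% held a match, and of 27025 genes 3.99%. Of the 32 listed interferon-stimulated genes 22 had a window and 12 of these held the motif. Among the genes called higher it was 7 of 9, and among those not called 5 of 13. A match is a string of letters and does not show binding. Each stretch runs 5′ to 3′ in the direction of the gene with the match in capitals:
Oas3: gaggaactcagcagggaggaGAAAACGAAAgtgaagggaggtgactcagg
Cxcl10: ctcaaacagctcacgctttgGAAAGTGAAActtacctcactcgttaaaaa
Ifit3: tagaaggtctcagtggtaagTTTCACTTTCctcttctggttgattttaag
Isg15: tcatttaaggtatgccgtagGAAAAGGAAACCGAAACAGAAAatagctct
Ifit1: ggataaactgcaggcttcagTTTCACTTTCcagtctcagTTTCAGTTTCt
The Oas3 stretch is chr5:120777705-120777754 on the minus strand, with the match starting 75 bases before the gene start. That of Cxcl10 is chr5:92349073-92349122 on the minus strand, 213 bases before the start. In Ifit3 (chr19:34583353-34583402, plus strand) the stretch shows 1 of 2 matches in the window, on the opposite strand and 156 bases before the start. The Isg15 stretch (chr4:156200867-156200916, minus strand, 78 bases before the start) holds 3 overlapping matches in 1 run. Ifit1 (chr19:34640765-34640814, plus strand) holds 2 matches on the opposite strand, the first 104 bases before the start. Oasl1 and Cxcl9 rose and had a window without these letters.

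Genes of antigen presentation split by library. Of 10 tested MHC class II genes, which present peptides to CD4+ T cells, 1 was higher with all libraries and 8 were higher without LNP replicate 3, 0 were lower, and the median log2 fold change moved from 0.38 to 0.72. The one called with and without it was H2-Oa, the alpha chain of H2-O, at 6.79, 7.64 and 7.03 CPM in control and 11.4, 10.9 and 11.4 in LNP libraries (log2 fold change 0.65 ± 0.16, adjusted p = 0.0386). H2-Ab1 was at 488, 595 and 527 CPM in control and 944, 913 and 293 in LNP libraries, and Cd74, the invariant chain, at 1890, 2254 and 2078 CPM in control and 3775, 3774 and 1522 in LNP libraries. LNP replicates 1 and 2 lay above every control library in both, and replicate 3 below. Without that library H2-Ab1 had a log2 fold change of 0.83, adjusted p = 0.00706, and Cd74 one of 0.90, adjusted p = 0.00427. In bleomycin lung H2-Ab1 was at 223, 188 and 157 CPM, and 9 of the 10 genes were higher in LNP than in bleomycin libraries, where 4.28% of all genes were. Against control, 4.95% of all tested genes were higher with all libraries and 6.41% without replicate 3. Of 23 interferon-gamma GTPases and MHC class I genes only H2-K1 rose with all libraries, at 1287, 1452 and 1477 CPM in control and 2330, 2073 and 1964 in LNP libraries (log2 fold change 0.59 ± 0.15, adjusted p = 0.0349), and 5 rose without replicate 3 (medians -0.03 and 0.17). These calls lie close to the threshold. On leaving out 1 library, the call was lost for H2-Oa in 7 of 9 fits (adjusted p from 0.0528 to 0.146) and for H2-K1 in 6 of 9 fits (adjusted p from 0.0528 to 0.141).

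**Figure D2:**
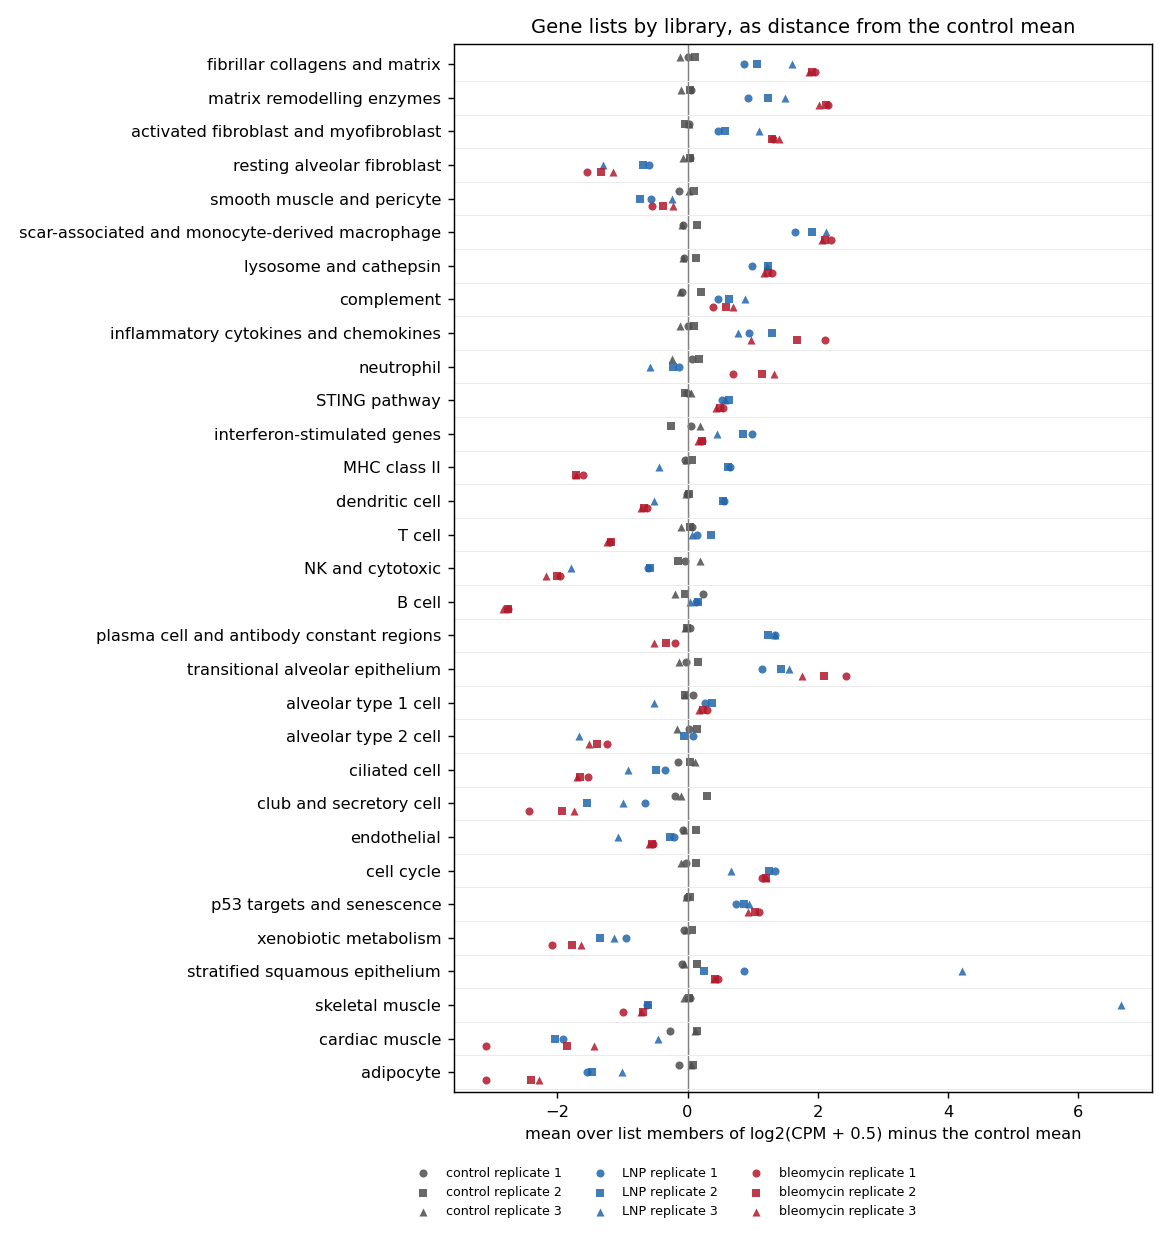
Each row is 1 gene list and each point 1 library, placed at the mean over the tested members of log2(CPM + 0.5) minus the mean of the control libraries. LNP points lie right of control for matrix (0.86 to 1.60) and macrophage lists (1.65 to 2.12), and LNP replicate 3 is alone at 6.65 for skeletal muscle and 4.21 for squamous epithelium.

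Most genes of the collagen-rich matrix that scars are made of rose in LNP lung. Of 30 tested genes of fibrillar collagens and other matrix 18 rose and 0 fell, with a median log2 fold change of 1.19; without replicate 3 it was 20 higher, 1 lower and a median of 1.06. Tnc, tenascin C, a matrix protein of wounds, was at 22.6, 25.5 and 23.8 CPM in control and 148, 260.0 and 344 in LNP libraries (log2 fold change 3.38 ± 0.36, adjusted p = 0.00109). Fn1, fibronectin, was at 462, 498 and 356 CPM in control and 1442, 2051 and 3126 in LNP libraries (log2 fold change 2.33 ± 0.27, adjusted p = 0.00154). Col1a1, a chain of collagen I, was at 441, 580.0 and 518 CPM in control and 1318, 1449 and 2205 in LNP libraries (log2 fold change 1.69 ± 0.21, adjusted p = 0.00214). In these 3 genes the groups were apart and replicate 3 was the highest LNP library. Col3a1, the collagen III chain, was at 715, 812 and 689.5 CPM in control and 1611, 1808 and 1680 in LNP libraries (log2 fold change 1.20 ± 0.13, adjusted p = 0.00145), and here the LNP libraries were close together. Sparc, a collagen-binding protein and one of the most abundant genes that rose, was at 1826, 2232 and 1818 CPM in control and 3850, 4167 and 4667 in LNP libraries (log2 fold change 1.11 ± 0.14, adjusted p = 0.00262). Eln, elastin, was at 690.5, 756 and 471 CPM in control and 2597, 2743 and 6811 in LNP libraries (log2 fold change 2.66 ± 0.37, adjusted p = 0.00347), and on leaving out replicate 3 the value was 2.10, adjusted p = 0.000175. Not every matrix gene followed: Postn, periostin, named after its values were seen, was at 273, 174 and 282 CPM in control and 178, 163 and 156 in LNP libraries (log2 fold change -0.55 ± 0.18, adjusted p = 0.101).

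Set beside bleomycin lung, 11 of these 30 matrix genes were lower in LNP libraries, against 1.87% of all genes, and 1 was higher. Tnc was at 1142, 792 and 518 CPM in bleomycin libraries (LNP minus bleomycin -1.71, adjusted p = 0.021). Fn1 was at 4769, 4544 and 4527 CPM in bleomycin libraries (-1.06, adjusted p = 0.0417), and Col3a1 differed by -0.58, adjusted p = 0.035. For Col1a1, at 2610, 2802 and 3004 CPM in bleomycin libraries, the difference did not pass with all libraries (-0.76, adjusted p = 0.0578). Without LNP replicate 3 it passed (adjusted p = 0.0011), and so did those of Tnc, Fn1 and Col3a1. Every LNP library lay between the control and the bleomycin libraries for Tnc, Fn1 and Col1a1. On the mean over the list LNP replicates 1, 2 and 3 were 0.86, 1.07 and 1.60 log2 units above control, and the bleomycin libraries 1.86 to 1.95.

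Among 28 tested enzymes and inhibitors of matrix remodelling 14 rose and 0 fell, with and without LNP replicate 3, and the median moved from 1.21 to 0.72. Timp1, an inhibitor of metalloproteinases, was at 6.43, 6.69 and 9.94 CPM in control and 98, 153 and 172 in LNP libraries (log2 fold change 4.19 ± 0.33, adjusted p = 0.000241). Mmp14, which cleaves collagen at the cell surface, was at 72, 91.8 and 67.3 CPM in control and 196, 222 and 341 in LNP libraries (log2 fold change 1.72 ± 0.22, adjusted p = 0.00243), and Mmp2, a gelatinase it activates, at 122, 183 and 141 CPM in control and 395, 362 and 569.5 in LNP libraries (log2 fold change 1.58 ± 0.20, adjusted p = 0.00262). P4ha3, a prolyl hydroxylase that modifies collagen chains, was at 1.78, 1.24 and 1.47 CPM in control and 8.97, 8.58 and 31.1 in LNP libraries (log2 fold change 3.43 ± 0.48, adjusted p = 0.00357; without LNP replicate 3, 2.59). In all 4 the LNP libraries were above the controls, and for P4ha3 replicate 3 was far above the other LNP libraries. Mmp12, the macrophage elastase, went the other way within the group, at 3.36, 2.75 and 4.06 CPM in control and 78.5, 110.4 and 7.09 in LNP libraries: replicates 1 and 2 were high and replicate 3 was the closest to control, with a log2 fold change of 4.27 with all libraries and of 4.84, adjusted p = 1.69e-05 without replicate 3.

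TGF-beta, the main signal that activates fibroblasts, gave a mixed picture in its 24 tested pathway genes. Of these 3 rose and 3 fell, beside 4.95% and 3.08% of all tested genes. The inhibitory Smad6 was at 279, 345 and 314 CPM in control and 116, 100.1 and 69.3 in LNP libraries (log2 fold change -1.72 ± 0.19, adjusted p = 0.00135). Smad7, the other inhibitory Smad, was at 94.2, 114 and 108 CPM in control and 60.4, 56.1 and 57.2 in LNP libraries (log2 fold change -0.86 ± 0.12, adjusted p = 0.00366). In both genes every LNP library was below every control library. Tgfbi, a matrix protein induced by TGF-beta, was at 76.6, 102 and 73.2 CPM in control and 156, 199 and 273 in LNP libraries (log2 fold change 1.32 ± 0.24, adjusted p = 0.00922). Inhba, a subunit of activin, was at 1.6, 0.999 and 2.19 CPM in control and 6.25, 7.79 and 9.34 in LNP libraries (log2 fold change 2.29 ± 0.44, adjusted p = 0.0125). The ligand Tgfb1 did not pass (log2 fold change 0.42 ± 0.15, adjusted p = 0.115). Without replicate 3 the count was 7 higher and 3 lower, and the medians were 0.43 and 0.27. On leaving out 1 library the call was lost for Tgfbi without control replicate 1 (adjusted p = 0.0526), or control replicate 3 (adjusted p = 0.0506), and for Inhba without control replicate 1 (adjusted p = 0.0616).

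Of 15 genes of activated fibroblasts and myofibroblasts 5 rose and 0 fell (5 and 1 without replicate 3; medians 0.40 and 0.29). Grem1, which binds bone morphogenetic proteins, was at 0.685, 0.893 and 1.04 CPM in control and 9.58, 17.2 and 22.9 in LNP libraries (log2 fold change 4.24 ± 0.33, adjusted p = 0.000204). Cthrc1, a marker of collagen-producing fibroblasts in fibrotic lung, was at 3.41, 5.16 and 4.19 CPM in control and 14.1, 10.6 and 19.7 in LNP libraries (log2 fold change 1.80 ± 0.28, adjusted p = 0.00534), and the latent TGF-beta binding protein Ltbp2 at 131, 159 and 112 CPM in control and 255, 312 and 344 in LNP libraries (log2 fold change 1.18 ± 0.19, adjusted p = 0.00562). The groups were apart for all 3. Acta2, smooth muscle actin, named after its values were seen, was not called with all libraries, at 448, 564 and 584 CPM in control and 329.5, 279 and 552 in LNP libraries (log2 fold change -0.46 ± 0.24, adjusted p = 0.277). Without replicate 3 it was lower (-0.77, adjusted p = 0.00991).

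Markers of resting alveolar fibroblasts that passed with all libraries were all lower, 5 of 14 (7 lower and 1 higher without replicate 3; median -0.76 and -0.57). Inmt, an amine methyltransferase of these cells, was at 1927, 2686 and 1895 CPM in control and 605, 524 and 428 in LNP libraries (log2 fold change -2.06 ± 0.24, adjusted p = 0.00184). Ces1d, a carboxylesterase, was at 754, 879 and 725 CPM in control and 428, 351 and 249 in LNP libraries (log2 fold change -1.20 ± 0.19, adjusted p = 0.00537), and stayed above bleomycin lung (159.7, 163 and 166 CPM there; LNP minus bleomycin 1.07, adjusted p = 0.0154). Of the 14 markers, only Ces1d was called higher in LNP than in bleomycin libraries and 0 were lower. Over all genes these shares were 4.28% and 1.87%. For Inmt that difference did not pass (0.86, adjusted p = 0.0633). Limch1, Fgfr4 and Npnt also fell against control. The calls were lost for Limch1 without control replicate 1 (adjusted p = 0.0764), and for Fgfr4 without control replicate 1 (adjusted p = 0.0722), or control replicate 2 (adjusted p = 0.0659). Npnt was not examined with each library left out in turn. Of 15 smooth muscle and pericyte genes 5 fell and 0 rose, 8 and 0 without replicate 3, with medians of -0.629 and -0.735. Cnn1, calponin, was at 108, 151 and 144 CPM in control and 51.5, 42.2 and 50.7 in LNP libraries (log2 fold change -1.48 ± 0.22, adjusted p = 0.00445). Myh11, smooth muscle myosin, was at 230.3, 281 and 294 CPM in control and 107, 96.2 and 125 in LNP libraries (log2 fold change -1.29 ± 0.22, adjusted p = 0.00696). The groups did not overlap for either.

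Most transcripts of macrophages found in scars rose in LNP lung. Of 25 tested genes of scar-associated and monocyte-derived macrophages 17 rose and 0 fell, and 18 rose without LNP replicate 3, with medians of 1.72 and 1.40. Spp1, osteopontin, was at 99.8, 51.7 and 71.6 CPM in control and 1192, 2113 and 2529 in LNP libraries (log2 fold change 4.71 ± 0.34, adjusted p = 0.000184). Trem2, a lipid receptor of macrophages, was at 2.92, 5.22 and 4.12 CPM in control and 63.3, 87.1 and 144 in LNP libraries (log2 fold change 4.58 ± 0.33, adjusted p = 0.000184). Gpnmb, a glycoprotein of lipid-laden macrophages, was at 12.4, 22.7 and 12.1 CPM in control and 233, 403 and 505 in LNP libraries (log2 fold change 4.60 ± 0.36, adjusted p = 0.000206). In each, replicate 1 was the lowest and replicate 3 the highest LNP library, and all were far above control. Ms4a7, a marker of monocyte-derived macrophages, was even across the group, at 3.62, 3.48 and 3.37 CPM in control and 18.6, 23.1 and 19.2 in LNP libraries (log2 fold change 2.54 ± 0.15, adjusted p = 7.72e-05). Beside bleomycin lung, Spp1 was lower (5292, 4657 and 4537 CPM in bleomycin; LNP minus bleomycin -1.31, adjusted p = 0.034), while for Trem2 the difference did not pass (102, 102 and 108 CPM; -0.08, adjusted p = 0.894).

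Lysosomal genes rose alongside, 15 of 21 with all libraries and 18 of 21 without replicate 3, 0 fell, and the medians were 1.01 and 0.96. Ctss, cathepsin S, was at 105, 97.8 and 104 CPM in control and 683, 878 and 731 in LNP libraries (log2 fold change 2.90 ± 0.14, adjusted p = 4.7e-05). Cd68, a lysosomal membrane protein of macrophages, was at 29.9, 34.6 and 29 CPM in control and 121, 175 and 203 in LNP libraries (log2 fold change 2.42 ± 0.19, adjusted p = 0.000204), and Ctsd, cathepsin D, at 664, 868 and 658 CPM in control and 2451, 3115 and 3030 in LNP libraries (log2 fold change 1.97 ± 0.16, adjusted p = 0.00028). No LNP library came near control in these genes. Of 22 complement genes 8 rose and 1 fell, with a median of 0.49. The chains of C1q, which macrophages make, gave 46.3, 61.1 and 52.4 CPM in control and 261, 331 and 539.8 in LNP libraries for C1qa (log2 fold change 2.83 ± 0.25, adjusted p = 0.000429) and 43.8, 59 and 49.8 CPM in control and 301, 376 and 701 in LNP libraries for C1qb (log2 fold change 3.17 ± 0.30, adjusted p = 0.00051). C7, a terminal component, fell (282, 348 and 241 CPM in control and 161, 179 and 124 in LNP libraries; log2 fold change -0.91 ± 0.22, adjusted p = 0.036), and without replicate 3 the counts were 9 higher and 0 lower and the median 0.17.

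Resident alveolar macrophage markers did not move one way, with 2 of 18 higher and 1 lower, beside 4.95% and 3.08% of all tested genes. Without replicate 3 it was 4 and 3, and the medians were 0.0075 and -0.074. Cidec, a lipid droplet protein also on the adipocyte list, fell from 23.8, 27.6 and 26.2 CPM in control libraries to 5.53, 4.6 and 5.54 CPM in LNP libraries (log2 fold change -2.31 ± 0.25, adjusted p = 0.00132). Atp6v0d2, a subunit of the proton pump, rose (11.7, 8.9 and 14.2 CPM in control and 40.5, 61.2 and 28.9 in LNP libraries; log2 fold change 1.91 ± 0.27, adjusted p = 0.00357), as did Lpl, lipoprotein lipase (log2 fold change 1.04 ± 0.25, adjusted p = 0.0331). The defining markers Siglecf and Marco, named after their values were seen, did not pass (log2 fold changes -0.82 and 1.80). The call was lost when 1 library was left out for Lpl in 6 of 9 fits (adjusted p from 0.0524 to 0.11).

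Of 30 inflammatory cytokines, chemokines and acute-phase genes 11 rose and 0 fell, with and without replicate 3, with medians of 1.48 and 1.43. Saa3, an acute-phase serum amyloid protein, had one of the largest rises of any gene, at 1.03, 0.908 and 0.929 CPM in control and 43.4, 81.1 and 134 in LNP libraries (log2 fold change 6.49 ± 0.41, adjusted p = 9.18e-05). Lcn2, which binds bacterial siderophores, was at 110.2, 115 and 124 CPM in control and 556, 566 and 355 in LNP libraries (log2 fold change 2.08 ± 0.20, adjusted p = 0.000597). Ccl2, the chemokine that draws monocytes, was at 0.897, 0.303 and 0.572 CPM in control and 6.04, 10.8 and 8.41 in LNP libraries (log2 fold change 3.83 ± 0.48, adjusted p = 0.00233), and the related Ccl7 rose too (log2 fold change 3.46 ± 0.51, adjusted p = 0.00432). All LNP libraries were above all controls in these genes. Il1b did not pass (log2 fold change -0.03).

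Against 4.95% higher and 3.08% lower of all tested genes, 1 of 18 neutrophil markers rose and 2 fell, and 2 and 2 without replicate 3, with medians of -0.318 and -0.185. The alarmin S100a8 was at 26.4, 26.2 and 20.4 CPM in control and 11.4, 9.95 and 7.13 in LNP libraries (log2 fold change -1.36 ± 0.26, adjusted p = 0.0118), against 54.6, 87.3 and 106 CPM in bleomycin libraries (LNP minus bleomycin -3.12, adjusted p = 0.000535). Its partner S100a9 was at 57.9, 45.1 and 44.3 CPM in control and 27.4, 21.3 and 12.3 in LNP libraries (log2 fold change -1.27 ± 0.32, adjusted p = 0.038). Both were lowest in LNP replicate 3. Of the 18 markers, 9 were lower in LNP than in bleomycin libraries, where 1.87% of all genes were. Clec4d, a C-type lectin also made by macrophages, rose (4.8, 4.38 and 3.23 CPM in control and 8.76, 15.4 and 13.6 in LNP libraries; log2 fold change 1.61 ± 0.27, adjusted p = 0.00696). Of 18 genes of NK and cytotoxic cells 1 passed with all libraries and 2 without replicate 3, all lower, and the medians were -1.22 and -0.84. For 11 of the 18 all LNP libraries lay below all controls, as for 15.2% of all genes. The gene called in both was Prf1, perforin, at 13.5, 13.6 and 11.5 CPM in control and 3.72, 4.65 and 1.31 in LNP libraries (log2 fold change -2.00 ± 0.39, adjusted p = 0.0133). Leaving out 1 library ended the call for S100a8 without control replicate 1 (adjusted p = 0.0533), for Prf1 without control replicate 1 (adjusted p = 0.0549), and for S100a9 in 5 of 9 fits (adjusted p from 0.0693 to 0.137).

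Of 22 T cell genes 2 rose and 0 fell, beside 4.95% and 3.08% of all tested genes, with a median of 0.0032, and 3 and 0 without replicate 3, with a median of 0.22. The first 2 are genes of regulatory T cells. Ctla4, an inhibitory receptor, was at 0.555, 0.333 and 0.386 CPM in control and 2.35, 2.32 and 4.46 in LNP libraries (log2 fold change 2.84 ± 0.63, adjusted p = 0.0231), and Foxp3, the factor that defines these cells, at 1.49, 0.742 and 0.357 CPM in control and 4.15, 6.55 and 8.24 in LNP libraries (log2 fold change 2.88 ± 0.74, adjusted p = 0.0436). The groups were apart, at low levels. With 1 library left out the call was lost for Ctla4 without control replicate 1 (adjusted p = 0.0722), or control replicate 2 (adjusted p = 0.0748), or control replicate 3 (adjusted p = 0.0961), and for Foxp3 in 5 of 9 fits (adjusted p from 0.0692 to 0.142). Cd3e, a chain of the T cell receptor complex named after its values were seen, was at 8.7, 7.9 and 8.69 CPM in control and 9.56, 11.8 and 7.75 in LNP libraries (log2 fold change 0.20 ± 0.20, adjusted p = 0.594), against 2.02, 2.11 and 1.77 CPM in bleomycin libraries (LNP minus bleomycin 2.30, adjusted p = 0.000758). Of 20 B cell genes 3 rose and 0 fell (3 and 1 without replicate 3; medians 0.05 and 0.11). Ighm, the heavy chain of IgM, was at 226, 176 and 119 CPM in control and 477, 353 and 527 in LNP libraries (log2 fold change 1.38 ± 0.24, adjusted p = 0.00852), and Blnk, a B cell receptor adaptor, and Cd22 also rose, the last not called in 6 of 9 fits with 1 library left out (adjusted p from 0.056 to 0.113). A missed threshold does not show equal levels. Against bleomycin libraries, 19 of the 20 B cell genes were higher in LNP lung, where 4.28% of all genes were.

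Several antibody genes rose in LNP lung. Of 19 plasma cell genes and antibody constant regions 8 rose and 0 fell, and 8 rose and 1 fell without LNP replicate 3, with medians of 0.55 and 0.80. Igkc, the kappa light chain constant region, was at 125, 101 and 102 CPM in control and 456, 445 and 457 in LNP libraries (log2 fold change 2.05 ± 0.13, adjusted p = 9.81e-05). Its 3 LNP libraries were almost equal, and the bleomycin libraries were at 106, 91.5 and 92.7 CPM. Ighg2c, an IgG heavy chain, was at 0.31, 0.409 and 0.129 CPM in control and 16.2, 27.6 and 144 in LNP libraries (log2 fold change 7.79 ± 0.96, adjusted p = 0.00212; without LNP replicate 3, 6.32), highest in replicate 3, and without it the log2 fold change was 6.32, adjusted p = 6.46e-05. Ighg1 was at 0.636, 0.348 and 0.658 CPM in control and 35.4, 9.26 and 12.2 in LNP libraries (log2 fold change 5.11 ± 0.62, adjusted p = 0.00198). Jchain, which joins IgA and IgM, was at 17.7, 12.3 and 13 CPM in control and 85.3, 82.2 and 36.7 in LNP libraries (log2 fold change 2.25 ± 0.32, adjusted p = 0.00357), lowest in replicate 3. Ighg2b, Igha, Ighg3 and Mzb1 rose too. Constant regions share sequence, so counts of single IgG genes are uncertain.

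Of 16 genes that organize lymphoid tissue 3 rose and 1 fell (4 and 1 without replicate 3; medians 0.39 and 0.37). Over all tested genes 4.95% rose and 3.08% fell, and without replicate 3 it was 6.41% and 4.51%. Ccl21a, the chemokine that brings T cells and dendritic cells into lymphoid tissue, was at 80.5, 108 and 93.2 CPM in control and 209.5, 225 and 242 in LNP libraries (log2 fold change 1.27 ± 0.14, adjusted p = 0.00154). It has near-identical gene copies, so its counts are uncertain. Cxcl13, which attracts B cells to follicles, was at 3.54, 4.21 and 3.85 CPM in control and 9.98, 9.41 and 117 in LNP libraries, with replicate 3 far above the rest, and had log2 fold changes of 3.55 with all libraries and of 1.36, adjusted p = 0.00183 without that one. It was not called in 6 of 9 fits with 1 library left out (adjusted p from 0.0581 to 0.141). Madcam1, an adhesion molecule for lymphocytes, had 0 counts in the controls and was at 0.222, 0.36 and 1.5 CPM in LNP libraries, at least 45.6-fold higher when 3 counts are assumed for the control group, a bound for counting error only. Without replicate 3 the bound was 19.1-fold. Of 17 dendritic cell genes 3 rose and 1 fell (8 and 0 of 18 without replicate 3; medians 0.50 and 0.56), beside the same shares of all tested genes. Fscn1, an actin bundler of mature dendritic cells, was at 21.5, 28.8 and 25.7 CPM in control and 118, 122 and 69.9 in LNP libraries (log2 fold change 2.03 ± 0.22, adjusted p = 0.00124). Batf3, a factor of cross-presenting dendritic cells, was at 1.81, 1.85 and 1.94 CPM in control and 5.22, 5.6 and 5.07 in LNP libraries (log2 fold change 1.50 ± 0.25, adjusted p = 0.00728). In bleomycin libraries Fscn1 was at 100.2, 90.9 and 82.6 CPM and Batf3 at 8.85, 6.08 and 4.75. Irf8 rose too (log2 fold change 0.55 ± 0.13, adjusted p = 0.028). The 1 that fell was Zbtb46, at 32.8, 36.6 and 35.9 CPM in control and 23.3, 26.5 and 18.5 in LNP libraries (log2 fold change -0.62 ± 0.16, adjusted p = 0.0379). On leaving out 1 library the call was lost for Irf8 in 4 of 9 fits and for Zbtb46 in 8, also without LNP replicate 3.

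**Figure D3:**
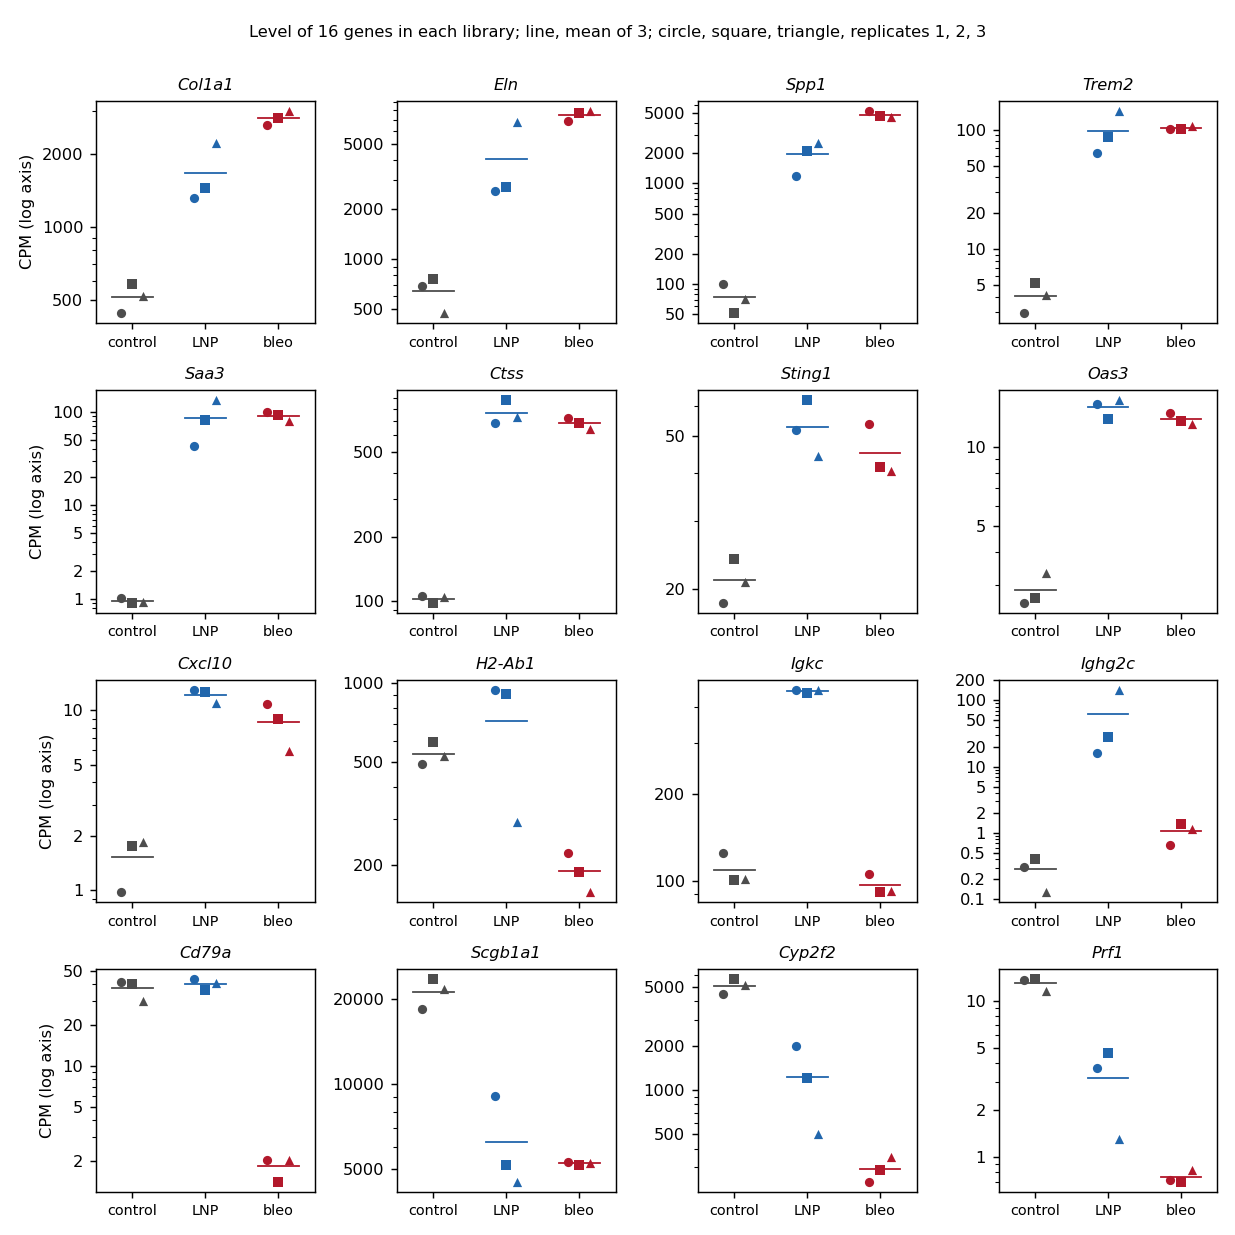
Each panel shows the CPM of 1 gene on a log axis in the 3 libraries of the control, LNP and bleomycin groups, with circles, squares and triangles for replicates 1, 2 and 3 and a line at the group mean. Spp1 is intermediate in LNP libraries, the B cell receptor gene Cd79a lies far above the bleomycin libraries, and Igkc is above both other groups.

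In the epithelium most transcripts of injured alveoli rose and most of those of airway secretory cells fell. Of 20 genes of transitional alveolar epithelium, the state between type 2 and type 1 cells during repair, 13 rose and 0 fell (15 without replicate 3; medians 1.06 and 1.00). Sprr1a, a cornified envelope protein, was at 1.78, 2.54 and 0.858 CPM in control and 16.2, 30.1 and 55.5 in LNP libraries (log2 fold change 4.30 ± 0.52, adjusted p = 0.00203). Cldn4, a tight junction claudin, was at 10.9, 14 and 11 CPM in control and 41.6, 50.7 and 115 in LNP libraries (log2 fold change 2.53 ± 0.38, adjusted p = 0.00433), and Lgals3, galectin 3, at 124, 175 and 129 CPM in control and 304, 412 and 574 in LNP libraries (log2 fold change 1.59 ± 0.25, adjusted p = 0.00525). Replicate 3, the library with squamous transcripts, was the highest in all 3. Krt8, a keratin often used to name this state, was at 287, 392 and 253 CPM in control and 457, 529.8 and 569 in LNP libraries (log2 fold change 0.74 ± 0.19, adjusted p = 0.0429), with no such step in replicate 3. Its call lies close to the threshold and was not examined with each library left out in turn.

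Of 17 type 1 cell genes 2 rose and 0 fell, beside 4.95% and 3.08% of all tested genes. Without replicate 3 it was 5 and 0, and the medians were 0.063 and 0.365. The first 2 were Col4a4, a basement membrane collagen, and Igfbp2, an insulin-like growth factor binding protein, at 292, 492 and 275 CPM in control and 1078, 1110 and 520.1 in LNP libraries (log2 fold change 1.35 ± 0.31, adjusted p = 0.0253). Of 20 type 2 cell genes 1 rose and 0 fell, beside the same shares of all tested genes. It was the protease Ctsh (log2 fold change 1.41 ± 0.24, adjusted p = 0.00758), which macrophages also make. Without replicate 3, 1 rose and 1 fell, and the medians were -0.32 and 0.07. The surfactant gene Sftpc, with the levels given above, did not pass (log2 fold change -0.87 ± 0.37, adjusted p = 0.189), and its lowest level was in replicate 3. On leaving out 1 library the call was lost for Igfbp2 in 5 of 9 fits (adjusted p from 0.0513 to 0.112) and for Col4a4 in 6 of 9 fits (adjusted p from 0.0558 to 0.0847). Over the type 2 list the mean distance from control was 0.08, -0.06 and -1.67 log2 units in LNP replicates 1, 2 and 3.

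Club and secretory cell genes fell in 12 of 20 cases and rose in 0, with and without replicate 3, and the medians were -1.21 and -0.98. Scgb1a1, the secretoglobin that defines club cells, was at 18370, 23470 and 21660 CPM in control and 9082, 5175 and 4520 in LNP libraries (log2 fold change -1.76 ± 0.25, adjusted p = 0.00378). Cyp2f2, a club cell cytochrome P450, was at 4467, 5625 and 5181 CPM in control and 1986, 1208 and 499.7 in LNP libraries (log2 fold change -2.05 ± 0.41, adjusted p = 0.0143). Aldh1a1, a retinaldehyde dehydrogenase, was at 1699, 1663 and 1686 CPM in control and 905, 705 and 654 in LNP libraries (log2 fold change -1.16 ± 0.15, adjusted p = 0.00257). All 3 LNP libraries were below all controls, replicate 3 lowest. Cbr2, a carbonyl reductase, fell too, at 4166, 5916 and 5375 CPM in control and 2030, 1150 and 1083 in LNP libraries, as did Muc5b, a mucin, at 139, 312 and 199 CPM in control and 51.9, 29.1 and 65.8 in LNP libraries. The call for Cyp2f2 was lost on leaving out 1 library: Cyp2f2 without control replicate 3 (adjusted p = 0.0506). Bleomycin libraries had Scgb1a1 at 5318, 5180 and 5250 CPM, which did not differ from LNP by the test (0.25, adjusted p = 0.566), and Cyp2f2 at 239, 287 and 349 CPM, lower than LNP (LNP minus bleomycin 2.08, adjusted p = 0.0212).

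Of 22 ciliated cell genes 2 fell and 0 rose with and without replicate 3, with medians of -0.59 and -0.39. With all libraries 3.08% of all tested genes fell and 4.95% rose. Hydin, a protein of the ciliary axoneme, was at 22.7, 26.1 and 28.3 CPM in control and 13.6, 15.1 and 8.19 in LNP libraries (log2 fold change -1.06 ± 0.22, adjusted p = 0.0179). Tppp3, a tubulin-binding protein, was at 516, 699 and 503 CPM in control and 331, 249.6 and 152 in LNP libraries (log2 fold change -1.23 ± 0.26, adjusted p = 0.0191). Foxj1, the factor that drives ciliation, did not pass (log2 fold change -0.34 ± 0.18, adjusted p = 0.288). Compared with bleomycin libraries, 17 of the 22 genes were higher in LNP lung, where 4.28% of all genes were. On leaving out 1 library the call against control was lost for Hydin without control replicate 3 (adjusted p = 0.0764), and for Tppp3 without control replicate 1 (adjusted p = 0.0542), or control replicate 2 (adjusted p = 0.0565), or LNP replicate 2 (adjusted p = 0.0568).

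Of 24 genes of the endothelium, which lines the vessels, 1 rose and 4 fell, beside 4.95% and 3.08% of all tested genes. Without replicate 3 it was 1 and 8, and the medians were -0.63 and -0.36. Tek, the angiopoietin receptor, was at 451, 420.4 and 401 CPM in control and 241, 222 and 146 in LNP libraries (log2 fold change -1.06 ± 0.18, adjusted p = 0.00804). Ednrb, an endothelin receptor, was at 101, 92.2 and 98.6 CPM in control and 33.9, 31.9 and 12.2 in LNP libraries (log2 fold change -1.90 ± 0.33, adjusted p = 0.00828). Ackr1, a chemokine-binding receptor of venules, rose from 0.473, 0.606 and 0.672 CPM in control libraries to 7.43, 10.2 and 23.8 CPM in LNP libraries (log2 fold change 4.55 ± 0.52, adjusted p = 0.00152; without LNP replicate 3, 3.95). Over the list the mean distance from control was -0.20, -0.27 and -1.06 log2 units by LNP replicate. Of 12 mesothelial genes 1 rose with and without replicate 3, beside 4.95% and 6.41% of all tested genes. It was Ildr2, at 8.45, 7.51 and 8.88 CPM in control and 27.9, 32.6 and 33.1 in LNP libraries (log2 fold change 1.91 ± 0.14, adjusted p = 0.000177).

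Many genes of proliferation and of the response to DNA damage rose. Of 26 cell cycle genes 17 rose and 0 fell (22 and 0 without replicate 3; medians 1.35 and 1.51). Ccnb1, the cyclin of mitotic entry, was at 2.15, 2.8 and 1.73 CPM in control and 9.45, 10.2 and 8.4 in LNP libraries (log2 fold change 2.07 ± 0.21, adjusted p = 0.000822), and its kinase Cdk1 at 3.77, 4.78 and 2.87 CPM in control and 16.4, 17.7 and 9.43 in LNP libraries (log2 fold change 1.93 ± 0.27, adjusted p = 0.00368). The proliferation marker Mki67 was at 8.88, 6.52 and 9.19 CPM in control and 34.9, 28.1 and 15 in LNP libraries. In these genes replicate 3 was the lowest LNP library and still above every control. Of 23 targets of p53 and senescence genes 11 rose and 0 fell, 12 and 1 without replicate 3, with medians of 0.745 and 0.753. Psrc1, a microtubule regulator, was at 1.29, 1.76 and 1.5 CPM in control and 15.5, 15.3 and 14.1 in LNP libraries (log2 fold change 3.30 ± 0.20, adjusted p = 7.72e-05). Eda2r, a receptor of the TNF family induced by p53, was at 1.78, 1.27 and 1.46 CPM in control and 6.11, 6.42 and 7.25 in LNP libraries (log2 fold change 2.13 ± 0.23, adjusted p = 0.00124). Gdf15, a stress hormone (log2 fold change 2.69 ± 0.43, adjusted p = 0.00561), and the death receptor Tnfrsf10b rose too. Cdkn1a, the p21 inhibitor and the best known target, named after its values were seen, did not pass, at 199.5, 244 and 172 CPM in control and 283, 353 and 512 in LNP libraries (log2 fold change 0.90 ± 0.25, adjusted p = 0.0532).

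**Figure D4:**
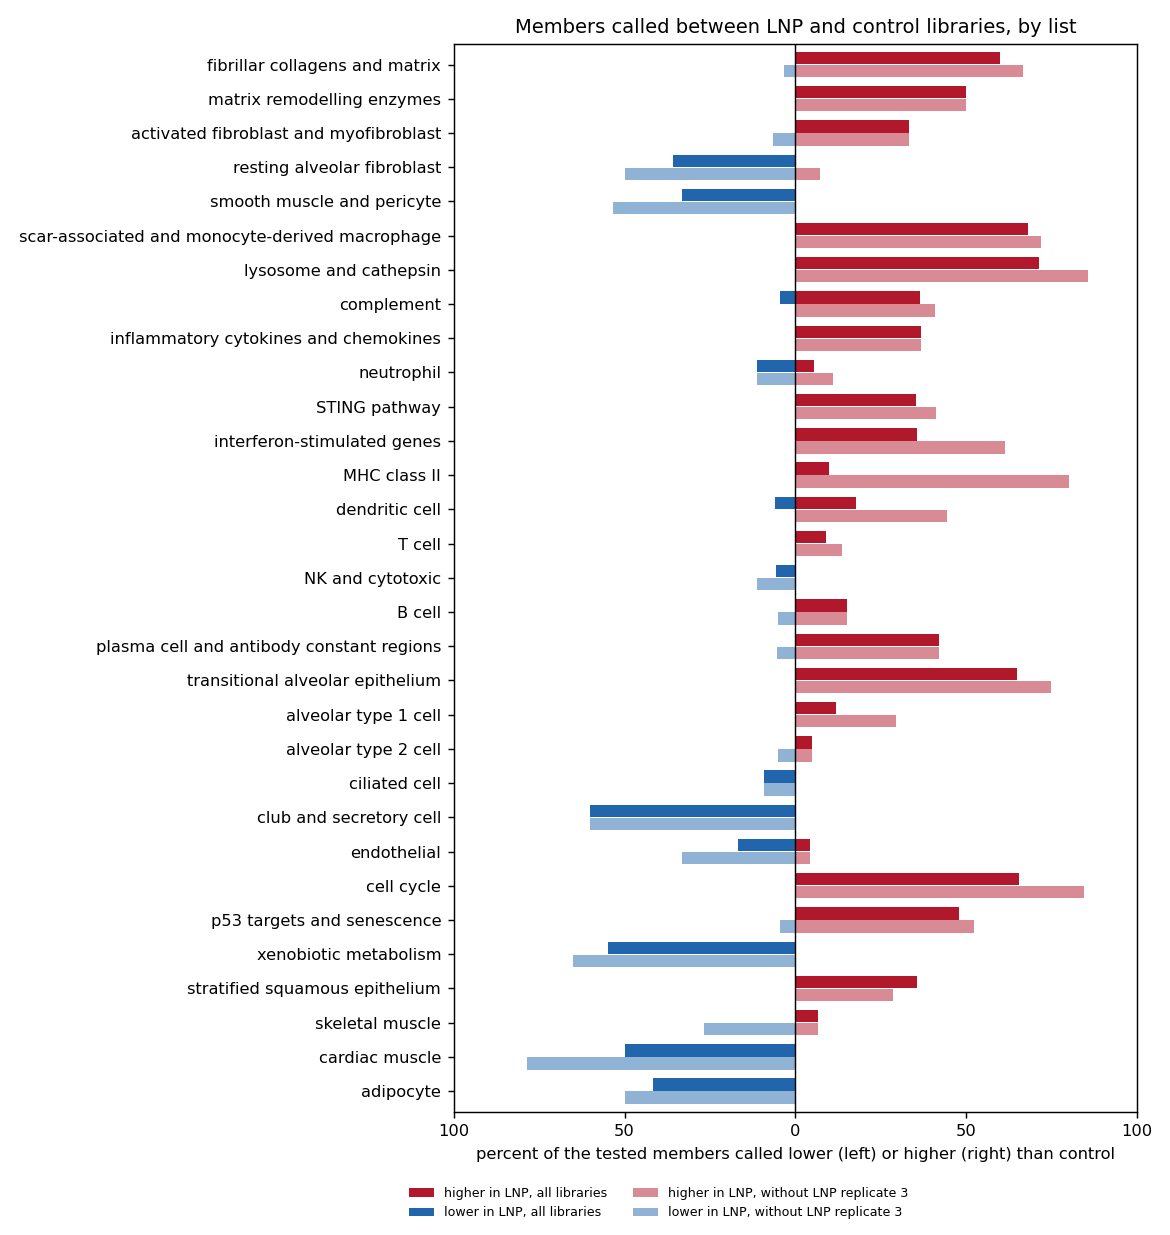
Bars give the percent of the tested members of each list called higher (right) or lower (left) in LNP than in control libraries, dark for all libraries and pale without LNP replicate 3. Matrix, macrophage, lysosome, transitional epithelium and cell cycle lists reach furthest to the right, club cell, xenobiotic and cardiac muscle lists to the left, and the MHC class II bar grows from 1 to 8 of 10 genes on leaving out replicate 3.

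Many enzymes that clear foreign compounds fell. Of 20 genes of xenobiotic metabolism 11 fell and 0 rose (13 and 0 without replicate 3; medians -0.86 and -1.13). Among all tested genes 3.08% fell and 4.95% rose, and without replicate 3 it was 4.51% and 6.41%. Cyp1a1, which the aryl hydrocarbon receptor induces, was at 64.2, 84.9 and 43.7 CPM in control and 13.7, 6.3 and 5.54 in LNP libraries (log2 fold change -2.91 ± 0.39, adjusted p = 0.003). Cyp4b1, abundant in lung, was at 1018, 1181 and 913 CPM in control and 424, 380.0 and 214 in LNP libraries (log2 fold change -1.61 ± 0.24, adjusted p = 0.00408). Of 20 oxidative stress genes and targets of Nrf2 3 rose and 4 fell (3 and 5 without replicate 3), among those lower the glutathione transferase Gsta3 (202, 226 and 168 CPM in control and 85, 63.4 and 116 in LNP libraries; log2 fold change -1.18 ± 0.22, adjusted p = 0.0101). The metallothionein Mt2 rose, at 10.1, 13.4 and 11.8 CPM in control and 50.7, 87.7 and 546 in LNP libraries (log2 fold change 4.28 ± 0.82, adjusted p = 0.0126; without LNP replicate 3, 2.60), with replicate 3 far above the others. Of 16 immediate early genes 5 rose, among them Egr2 (2.92, 3 and 2.25 CPM in control and 7.7, 11.7 and 8.24 in LNP libraries; log2 fold change 1.76 ± 0.25, adjusted p = 0.0037), and 1 fell, Jun (331, 382 and 326 CPM in control and 216, 216 and 172 in LNP libraries; log2 fold change -0.78 ± 0.13, adjusted p = 0.00797), against 5 and 2 without replicate 3. Beside bleomycin libraries, 8 of the 16 immediate early genes were lower in LNP lung and 0 higher, where 1.87% and 4.28% of all genes were. Of 13 mitochondrially encoded transcripts 4 fell and 0 rose against control, with and without replicate 3. Mitochondrial transcripts took 1.78% to 2.80% of counts in control and 1.83% to 1.90% in LNP libraries. The call was lost when 1 library was left out for Mt2 without control replicate 1 (adjusted p = 0.0704), or control replicate 3 (adjusted p = 0.0641).

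The 10 largest rises by the naming rule were led by transcripts that are not typical of lung. Jsrp1, a protein of the muscle sarcoplasmic reticulum, had 0 counts in control libraries and was at 0.43, 0.737 and 27.7 CPM in LNP libraries, at least 634-fold higher by the same floor, a bound that LNP replicate 3 sets, and at least 38.4-fold without it. Pkp1, a desmosome protein of squamous epithelium, was at 0.0653, 0.0757 and 0.0572 CPM in control and 1.22, 0.393 and 31.2 in LNP libraries, and H19, an imprinted noncoding RNA, at 0.865, 0.848 and 0.729 CPM in control and 1.99, 3.86 and 193 in LNP libraries. Their log2 fold changes were 7.33 and 6.34, and without replicate 3 they were 3.62, adjusted p = 0.00666, and 1.88, adjusted p = 0.0156. Krt4, Serpinb12 and the cornified envelope genes Sprr2a1 and Sprr2a2, near-identical copies with uncertain counts, complete this set together with Ighg2c, Saa3 and Kng2. Kng2, a kininogen, was high in each LNP library, at 0.196, 0.348 and 0 CPM in control and 5.48, 6.32 and 9.44 in LNP libraries (log2 fold change 5.28 ± 0.77, adjusted p = 0.00408). With 1 library left out the calls were lost for Jsrp1 in 6 of 9 fits (adjusted p from 0.0558 to 0.094), for Pkp1 without control replicate 1 (adjusted p = 0.1), or control replicate 2 (adjusted p = 0.0756), or control replicate 3 (adjusted p = 0.0992), for Serpinb12 without control replicate 1 (adjusted p = 0.0987), or control replicate 2 (adjusted p = 0.0636), or control replicate 3 (adjusted p = 0.104), for Krt4 in 5 of 9 fits (adjusted p from 0.0512 to 0.127) and for H19 in 6 of 9 fits (adjusted p from 0.0584 to 0.145).

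The 10 largest falls were Ankrd63, Hes2, Bex2, Plin1, Cyp1a1, Gria1, Colq, Mybphl, Gsg1l and Faim2. Ankrd63 was at 28.5, 44.1 and 33.2 CPM in control and 5.69, 3.49 and 0.61 in LNP libraries (log2 fold change -3.43 ± 0.60, adjusted p = 0.00866). Colq, the collagen tail of acetylcholinesterase, was at 47.7, 73.6 and 55.9 CPM in control and 13.9, 10.2 and 4.29 in LNP libraries (log2 fold change -2.64 ± 0.39, adjusted p = 0.00442), and its bleomycin level was lower still (0.852, 0.652 and 1.19 CPM; LNP minus bleomycin 3.39, adjusted p = 0.00426). All LNP libraries were below all controls. Among the most abundant genes, Apoe, a lipid carrier that macrophages make, was at 734, 996 and 723 CPM in control and 1763, 2431 and 6052 in LNP libraries (log2 fold change 2.06 ± 0.41, adjusted p = 0.0138; without LNP replicate 3, 1.40). Ftl1, the ferritin light chain, was at 1561, 2252 and 1748 CPM in control and 3117, 3224 and 3267 in LNP libraries (log2 fold change 0.79 ± 0.16, adjusted p = 0.0154). Gsn, gelsolin, fell from 5614, 7554 and 4969 CPM in control libraries to 2332, 2174 and 2779 CPM in LNP libraries (log2 fold change -1.32 ± 0.18, adjusted p = 0.00357), and Epas1, an oxygen-regulated transcription factor abundant in lung endothelium, was at 3369, 2764 and 3073 CPM in control and 1683, 1510 and 1143 in LNP libraries (log2 fold change -1.09 ± 0.16, adjusted p = 0.00473). Leaving out 1 library ended the call for Apoe without control replicate 1 (adjusted p = 0.0718), or control replicate 3 (adjusted p = 0.0681), and for Ftl1 without control replicate 1 (adjusted p = 0.0717), or control replicate 3 (adjusted p = 0.0666).

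Transcripts of other tissues moved with single libraries or with the groups. Of 15 skeletal muscle genes 1 was called with all libraries, while without replicate 3 it was 1 higher and 4 lower, and the median went from 4.88 to -1.17. Acta1, skeletal actin, was at 1.32, 1.65 and 0.329 CPM in control and 0.264, 0.687 and 3447 in LNP libraries (log2 fold change 10.03 ± 3.05, adjusted p = 0.0757), and the muscle calcium pump Atp2a1 at 3.12, 5.42 and 3.07 CPM in control and 0.847, 0.671 and 1489 in LNP libraries (log2 fold change 7.00 ± 2.37, adjusted p = 0.105). Without replicate 3 Atp2a1 was lower (-2.31, adjusted p = 0.00257). Mybpc2, a myosin-binding protein, was higher in every LNP library, at 2.99, 3.68 and 3.59 CPM in control and 14.4, 19 and 149.6 in LNP libraries (log2 fold change 4.16, and without replicate 3 2.33, adjusted p = 0.000218). Of 14 squamous genes 5 rose and 0 fell, 4 and 0 without replicate 3. Krt4 was at 0, 0.318 and 0.0572 CPM in control and 3.89, 1.16 and 767 in LNP libraries (log2 fold change 10.97 ± 2.59, adjusted p = 0.0307; without LNP replicate 3, 4.34), Krt13 at 0.0979, 0.515 and 0.386 CPM in control and 0.763, 0.311 and 866 in LNP libraries (log2 fold change 9.74 ± 2.72, adjusted p = 0.0574) and Krt5, a keratin of basal cells, at 1.81, 1.77 and 0.929 CPM in control and 9.06, 1.93 and 58.6 in LNP libraries. Krt5 was called with all libraries (log2 fold change 3.95 ± 1.04, adjusted p = 0.0464) and not without replicate 3 (1.91, adjusted p = 0.0808). With 1 library left out the call was lost for Krt4 in 5 of 9 fits (adjusted p from 0.0512 to 0.127), Krt5 in 7 of 9 fits (adjusted p from 0.0615 to 0.162) and Mybpc2 without control replicate 1 (adjusted p = 0.0725), or control replicate 2 (adjusted p = 0.0533), or control replicate 3 (adjusted p = 0.066).

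Many heart muscle and fat genes fell in LNP lung. Of 14 cardiac genes 7 fell and 0 rose (11 and 0 without replicate 3; medians -1.71 and -2.17), and of 12 adipocyte genes 5 fell and 0 rose (6 and 0; -1.82 and -1.95). The atrial light chain Myl4 was at 77.7, 139.5 and 96.5 CPM in control and 27, 24.2 and 27.9 in LNP libraries (log2 fold change -1.99 ± 0.29, adjusted p = 0.00406). Plin1, which coats fat droplets, was at 11.7, 13.9 and 10.8 CPM in control and 1.97, 1.78 and 0.401 in LNP libraries (log2 fold change -3.13 ± 0.60, adjusted p = 0.0122). Car3, a carbonic anhydrase of fat and muscle, was at 65.3, 70.1 and 78.6 CPM in control and 14.7, 17.1 and 19.9 in LNP libraries (log2 fold change -2.05 ± 0.41, adjusted p = 0.0146). The summed level of the cardiac list was 963.6, 1368 and 1247 CPM in control and 268, 234 and 830.2 CPM in LNP libraries, with the highest LNP sum in replicate 3, the library with skeletal muscle transcripts. On leaving out 1 library the call was lost for Car3 without control replicate 1 (adjusted p = 0.0508), or control replicate 3 (adjusted p = 0.0612). The sources used here do not say how much heart or fat was dissected with each lung, and its part in these differences was not tested.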

How the data were processed

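Whole-lung RNA of 9 libraries, 3 per group, was measured. The authors deposited whole-number counts and FPKM per gene, per the file headers. Per the submitters' processing notes, the tools included fastp, StringTie and edgeR. The sources used here name no aligner, genome build or way of deriving the counts, nor whether strand was used. From the deposited counts, all 9 libraries were fitted in 1 model with edgeR 4.0.16 in R 4.3.3, using its quasi-likelihood F test, with TMM scaling and filterByExpr, which left out 11877 of 32671 genes. P-values were Benjamini-Hochberg adjusted over all tested genes and called under 0.05, and every adjusted p is from this test. The fit was repeated without LNP replicate 3. CPM use TMM-scaled sizes.

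The 47 gene lists, the comparison and the naming rule were chosen with earlier results of these data known. Named were the 10 largest rises and falls among genes called with and without LNP replicate 3, without overlap and with at least 5 CPM in the higher group (unnamed models, pseudogenes and receptor segments passed over), the 6 most abundant called each way, up to 4 called members per list by p, and Sting1, Cgas and the leading muscle and squamous markers. Postn, Krt8, C7, Mki67, Cd3e and a few further genes were named after their values were seen. The fitting was tested on simulated data. FPKM, scaled by the authors per the file headers, served limma 3.58.1 as an alternative on log2(FPKM + 1) and log2(FPKM + 0.1) at a mean FPKM of at least 0.5. DESeq2 1.42.0, other scalings, no filter, the 6 libraries alone, a replicate block, a 2-fold minimum and leaving out each library were the other alternatives. Some results are not reported here.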

Additional observations from a re-analysis of the deposited data

How the results depend on the processing

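With DESeq2, 1906 genes were higher and 1236 lower, and with only the 6 compared libraries in the fit 679 and 331. Leaving out each of the 9 libraries in turn gave 491 to 1369 higher and 226 to 963 lower genes. The lowest counts came without control replicate 1 (491 and 226) and replicate 3 (519 and 262), and the lower genes were 298 without LNP replicate 2 and 357 without bleomycin replicate 2. A 2-fold minimum left 299 lower genes. The labels do not say whether the replicate numbers pair the samples. Deviations of same-numbered control and LNP libraries from their group means correlated at 0.032, -0.018 and -0.0011. With 3 libraries a group, and LNP replicate 3 apart from the others, this cannot decide whether they are paired. With the number as a replicate block 718 genes were higher and 401 lower. Library-size scaling, added after seeing the data, and the remaining settings stayed within 1.5 times. Sting1 ranged from 1.19 to 1.47 on the log2 scale and passed in every setting.

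Of 164 named genes that were called, 109 were called whichever library was left out, 135 under the replicate block, 130 with only 6 libraries, and 0 turned direction. Genes outside the naming rule, such as Enpp1, Nlrc3, Npnt, Krt8 and C7, were not examined in this way. Atp2a1, not called with all libraries, ranged from -2.31 without LNP replicate 3 to 7.58 without LNP replicate 1 or 2. The cause of these shifts was not tested. Genes with few counts in the controls, such as Pkp1 and Krt4, have folds that rest on few reads, and 3 libraries a group limit every error.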

Other observations

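Of 20 genes of cholesterol synthesis and uptake 3 rose and 0 fell between control and LNP lung, beside 4.95% and 3.08% of all tested genes. Without LNP replicate 3 it was 3 and 1, and the median log2 fold changes were 0.27 and 0.29. Mvd, a decarboxylase of the mevalonate pathway, was at 17.5, 16.8 and 14.4 CPM in control and 29.1, 28.9 and 32.3 in LNP libraries (log2 fold change 0.89 ± 0.15, adjusted p = 0.00696). The other genes that rose were Abca1, which exports cholesterol from macrophages, and Cyp51. Of 18 genes of endoplasmic reticulum stress 0 rose and 2 fell with and without replicate 3. With all libraries 4.95% of all tested genes rose and 3.08% fell. The 2 were Herpud1 (log2 fold change -0.82 ± 0.19, adjusted p = 0.0257) and Atf5 (log2 fold change -0.62 ± 0.15, adjusted p = 0.0325). Of 20 genes of glycolysis and hypoxia 4 rose and 0 fell, beside the same shares of all tested genes (5 and 1 without replicate 3; medians 0.665 and 0.296). Among those that rose were Eno1, an enolase (log2 fold change 1.33 ± 0.29, adjusted p = 0.0203), and Ldha, lactate dehydrogenase (log2 fold change 0.65 ± 0.17, adjusted p = 0.0446). With 1 library left out the call was lost for Abca1 without control replicate 3 (adjusted p = 0.0734), or LNP replicate 2 (adjusted p = 0.053), for Eno1 without control replicate 1 (adjusted p = 0.0884), or control replicate 3 (adjusted p = 0.0881), for Cyp51 in 6 of 9 fits (adjusted p from 0.0598 to 0.0983), for Herpud1 in 6 of 9 fits (adjusted p from 0.0549 to 0.0781), for Atf5 in 7 of 9 fits (adjusted p from 0.0539 to 0.0877) and for Ldha in 7 of 9 fits (adjusted p from 0.052 to 0.158).

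Of 5 thymocyte, 10 erythroid and 5 thyroid and parathyroid genes 0 were called with all libraries and 0 without LNP replicate 3. The summed level of the 10 erythroid genes was 10760, 12350 and 10010 CPM in control and 7923, 4549 and 1204 CPM in LNP libraries, with the lowest level in replicate 3. Of 8 cartilage genes 1 rose and 1 fell, beside 4.95% and 3.08% of all tested genes. Without replicate 3 it was 1 and 1 of 9, and the medians were 1.28 and 1.15. Of 10 nerve and Schwann cell genes 2 rose and 1 fell, beside the same shares of all tested genes (2 and 2 without replicate 3; medians 0.24 and -0.125).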
